A study of Mus musculus with 6 samples.

Results

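Lysosomes are the acidic organelles in which cells break down proteins, lipids, glycans and engulfed material. The 38 genes described here encode soluble hydrolases, their activators, proteins of the lysosomal membrane and transcription factors that set lysosome number. They were taken by symbol from a list of lysosomal genes chosen with earlier results of these data known, and all 38 were found among the 55359 annotated genes of the tables. All 38 passed the filter of a mean of at least 1 TPM (a transcript's share of a library, scaled to transcript length) and so belonged to the 18893 genes tested.

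RNA was measured in whole brain of mouse embryos at E18.5, in 3 wild-type (WT) libraries and 3 libraries from PME-1 S156A knock-in embryos, each made from a pool of 3 brains. PME-1 is the methylesterase that acts on the catalytic subunit of protein phosphatase 2A, and S156A replaces a serine of the enzyme with alanine. Total RNA was taken with TRIzol and made into directional libraries. Zygosity, strain and the sex of the embryos were not given in the sources used here. Each library pools different brains, so the spread between libraries is that of pools and not of single embryos.

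Most lysosomal hydrolases reach the organelle through mannose 6-phosphate receptors. Cathepsins are lysosomal proteases made as inactive precursors, and some of their genes, such as Ctss, are enriched in microglia, the resident macrophages of the brain. TFEB and TFE3 are related transcription factors that switch on many lysosomal genes by binding an E-box element. Loss of single hydrolases causes storage diseases, many of which damage neurons.

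Depth was estimated at 3.15 to 4.14 aligned gigabases per library, and between 18191 and 19270 annotated genes reached 1 TPM. WT replicate 3 and S156A replicate 1 stood apart from the other libraries. Their summed level of 7 skeletal muscle genes was 5747 and 6474 TPM, against 750 TPM in WT replicate 2 and 15.4 to 44.8 TPM in the others. Results are therefore also given without both muscle-rich libraries, WT replicate 3 and S156A replicate 1. WT replicate 2, which carries some muscle RNA, stays in that comparison. The mean log2(TPM + 1) of 4 Y-linked genes was 0.11 in S156A replicate 1 and 2.82 to 3.77 in the other libraries, so the sex mix of the pools differed. Neuronal markers were present in every library, with a summed level of 6 genes between 2440 and 4599 TPM, in keeping with brain tissue.

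Lysosomal genes as a group stood higher in S156A brains. Together the 38 genes summed to 2235 ± 225 TPM in WT and 3127 ± 148 in S156A (SD, n = 3 each), and the 3 S156A sums, 3145, 2972 and 3265 TPM, lay above the 3 WT sums, 2034, 2192 and 2477 TPM. The log2 difference between genotypes was positive for 35 of 38 genes, against 61.7% of all tested genes, and its median was 0.36 against 0.09 over all tested genes. As the genes were chosen with earlier results known, these counts describe the list and are not independent evidence of its direction. Ctsb was the 1 gene called by limma at a Benjamini-Hochberg adjusted p under 0.05, where 0.0847% of all tested genes were called higher and 0.0741% lower. At an unadjusted p under 0.05, 18 of the 38 were higher and 0 lower, against 8.41% and 5.5% of all tested genes. In 21 of the 38 all S156A libraries lay above all WT libraries, against 13.7% of tested genes, and in 2, Smpd1 and Gaa, all lay below, against 7.05%. Without both muscle-rich libraries 18 of the 38 were again at an unadjusted p under 0.05, all higher, and 0 were called, the smallest adjusted p being 0.0814. In whole tissue, more cells of a type and more RNA per cell cannot be told apart.

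**Figure D1:**
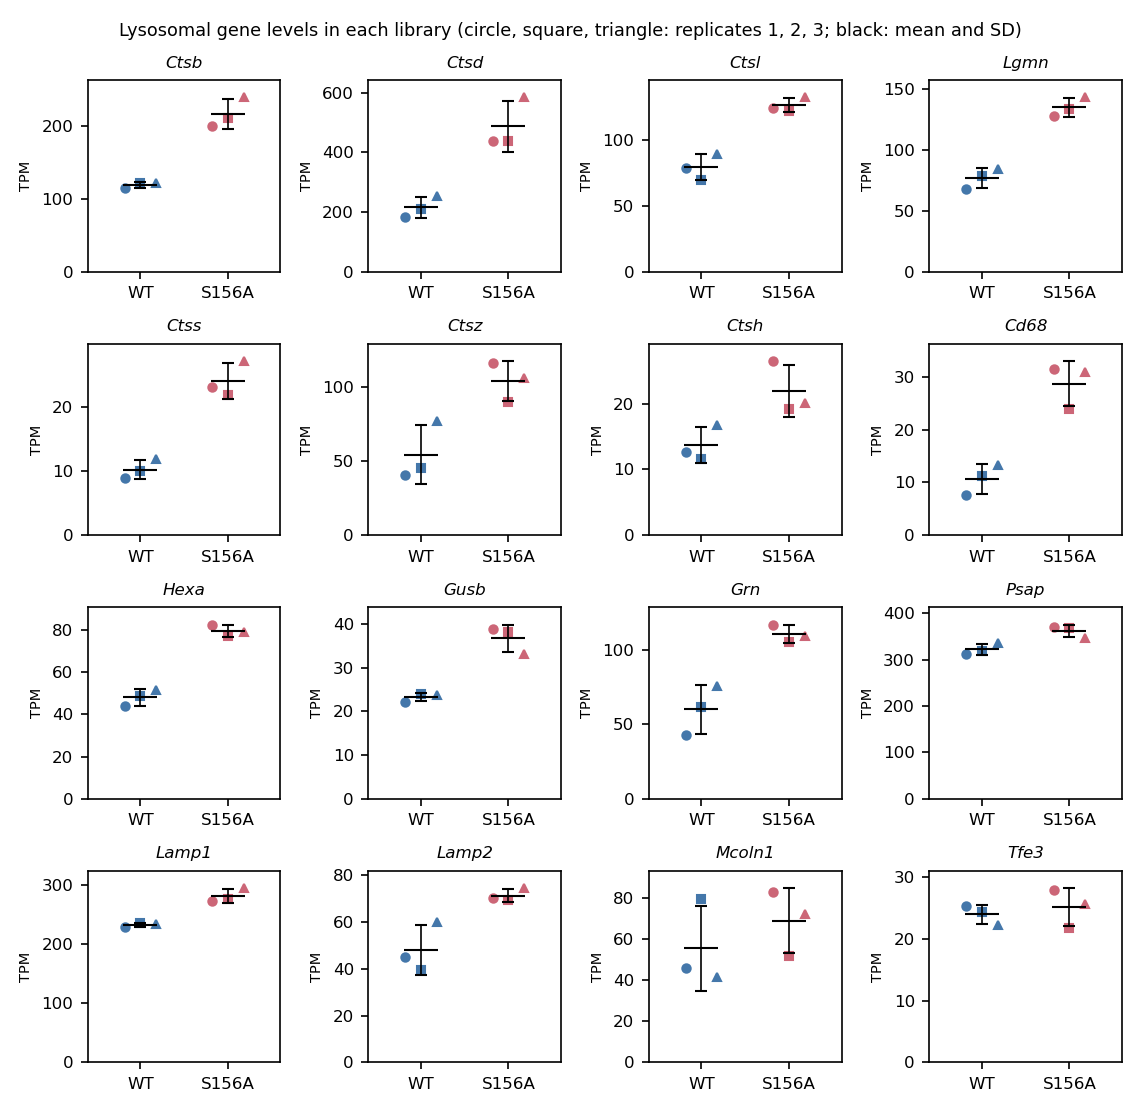
Levels of 16 lysosomal genes in TPM (vertical axes, each starting at 0) in the WT (blue) and S156A (red) libraries, with replicates 1, 2 and 3 as circles, squares and triangles and the mean ± SD in black. Ctsb, Ctsd, Ctss and Cd68 separate the genotypes widely, whereas Mcoln1 and Tfe3 overlap.

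The proteases stood highest of the 6 roles. Their summed level was 613, 651 and 845 TPM in WT replicates 1 to 3 and 1321, 1185 and 1406 TPM in S156A replicates 1 to 3, a ratio of means of 1.86. All 10 had positive log2 differences, with a median of 0.79, and 9 were at an unadjusted p under 0.05, Ctsk being the exception. Under trimmed-mean scaling the median was 0.69 and 8 of the 10 were at an unadjusted p under 0.05.

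Ctsb encodes cathepsin B, a cysteine protease with both endopeptidase and carboxypeptidase activity (ENSMUSG00000021939.9, chromosome 14, 63359911 to 63383372 in the files' coordinates). Its level was 114, 121 and 122 TPM in the WT libraries and 199, 210.0 and 239 TPM in the S156A libraries. The WT values were within 10 TPM of each other and every S156A value was far above them. The gene rose by 0.85 on the log2(TPM + 1) scale (SE 0.11, limma adjusted p = 0.0478, exact permutation p = 0.1, the smallest that 3 against 3 libraries can give). The call was close to the threshold and was lost when any 1 library was left out, with adjusted p from 0.058 to 0.255, while the difference kept between 0.78 and 0.91. It was also lost without both muscle-rich libraries (difference 0.92, limma adjusted p = 0.0815), and the adjusted p by limma ran from 0.017 to 0.288 over all 20 alternatives. Ctsb overlaps Fdft1 on the opposite strand, and whether reads were counted by strand, not given in the sources used here, bears on both genes.

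Ctsd encodes cathepsin D, the main aspartic protease of lysosomes (ENSMUSG00000007891.17, chromosome 7, 141929648 to 141941775). It stood at 183, 208 and 252 TPM in WT and 437, 438 and 584 TPM in S156A, and by group mean it ranked 3 of the 38 genes in WT, after Psap and Lamp1, and 1 in S156A. The lowest S156A library was thus well above the highest WT library, and the log2 difference was 1.17 (SE 0.17, limma adjusted p = 0.0643). The value is less certain than the replicate spread shows, because the annotated gene Gm49369 overlaps Ctsd on the same strand and may share its reads. Gm49369 stood at 172, 181 and 217 TPM in WT and 370, 399 and 502 TPM in S156A, and the 2 genes added together at 356 to 469 TPM in WT and 807 to 1086 TPM in S156A. Ctsd made up 9.57% ± 0.59 of the summed TPM of the 38 genes in WT and 15.5% ± 2.09 in S156A (SD, n = 3 each).

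The promoter of Ctsd also holds letters that match the element bound by TFEB and TFE3, which shows no binding. On chromosome 7, which holds Ppme1, the gene of PME-1, Ctsd lies 41.9 Mb and Smpd1 5.18 Mb away from it.

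Ctss, Ctsh and Ctsz are the cathepsins most typical of myeloid cells, and with the macrophage glycoprotein gene Cd68 they were set apart as the myeloid-enriched genes. Ctss encodes cathepsin S, a protease that stays active at neutral pH and trims the invariant chain in antigen presentation. It stood at 8.88, 10.04 and 11.8 TPM in WT and 23.1, 21.9 and 27.2 TPM in S156A (log2 difference 1.16, SE 0.17, limma adjusted p = 0.0643). Ctsz, a carboxypeptidase, stood at 40.6, 45.5 and 77.3 TPM in WT and 117, 89.8 and 106 TPM in S156A (log2 difference 0.97, SE 0.24, limma adjusted p = 0.179). Its adjusted p by limma ran from 0.045 without WT replicate 3, the highest WT library, to 0.539 without WT replicate 2, and no other single library left out gave a call. Ctsh, an aminopeptidase, stood at 12.7, 11.6 and 16.8 TPM in WT and 26.5, 19.2 and 20.1 TPM in S156A (log2 difference 0.64, SE 0.20). Cd68 had the largest log2 difference of the 38 genes, 1.37 (SE 0.22, limma adjusted p = 0.0772), at 7.57, 11.2 and 13.2 TPM in WT and 31.4, 23.8 and 31.0 TPM in S156A. In all 4 genes every S156A library lay above every WT library.

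The median log2 difference was 1.07 over these 4 genes and 0.31 over the other 34. The gap between the medians was 0.75, and leaving out 1 library at a time gave 0.69 to 0.92. It was 0.65 when Ctsb, Ctsd, Lgmn and Grn were moved to the myeloid-enriched side. No test was made of this gap, since the genes were grouped with their values known. The other 34 hold genes of every role, so the gap also sets cathepsins against other kinds of genes. The 6 cathepsins other than Ctsh, Ctss and Ctsz had a median log2 difference of 0.72. Ctsh lay below that median at 0.64, and Ctss, Ctsz and Cd68 lay above it. The ratio of mean summed levels was 1.86 for those 6 cathepsins and 2.01 for the 4 myeloid-enriched genes, a difference that was not tested.

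Markers of microglia moved with the proteases. Of 17 microglial markers 16 were tested, all 16 had positive log2 differences (median 1.42), 4 were called, and 12 were higher at an unadjusted p under 0.05. The number called was 9 without WT replicate 3 and 0 without any other single library or without both muscle-rich ones, where 12 or 13 were at an unadjusted p under 0.05 by limma. Their summed level was 154 to 260 TPM in WT and 487 to 588 TPM in S156A, a ratio of means of 2.78, against 2.01 for the summed level of the 4 myeloid-enriched lysosomal genes. Cx3cr1, Fcrls and Laptm5 had the smallest p, with log2 differences of 2.07, 1.74 and 1.44. The list was not uniform: P2ry12 (0.19), Siglech (0.08) and Tmem119 (0.78, SE 1.01), named after their values were seen, did not differ beyond their errors. The summed level of 6 border macrophage markers was 35.2 to 88.7 TPM in WT and 84.0 to 114 TPM in S156A, and that of 7 blood leukocyte markers 3.86 to 13.6 and 7.55 to 16.3 TPM, with Ccr2 and Cd3e each at 0 in 1 library. Astrocyte markers summed to 351 ± 21.5 TPM in WT and 524 ± 79.1 in S156A (SD, n = 3 each), with 5 of 7 positive and 1 called. The called gene, Gfap, averaged 21.2 ± 2.25 TPM in WT and 109 ± 33.9 in S156A (limma adjusted p = 0.0444), and no astrocyte marker was called without both muscle-rich libraries, without WT replicate 1 or 2 or without S156A replicate 2 or 3. With Gfap, 3 astrocyte markers were higher and 0 lower at an unadjusted p under 0.05 by limma. Gja1 (log2 difference 0.76), Aqp4 (0.70) and S100b (0.58) also had every S156A library above every WT library. Slc1a3 (0.07), Slc1a2 (-0.03) and Aldh1l1 (-0.12) had log2 differences within their errors. All genes of this list were named after their values were seen. Choroid plexus markers summed to 1294 ± 211 TPM in WT and 2735 ± 619 in S156A. Most of this was Ttr, at 1223 ± 226 and 2611 ± 631 TPM (SD, n = 3 each). Of 6 choroid plexus markers 5 were tested, all 5 were positive and 3 were higher at an unadjusted p under 0.05 by limma. Meningeal fibroblast markers ranged from 184 to 2115 TPM in WT and 381 to 2601 TPM in S156A. The part of microglia and of the other cell types in the lysosomal values was not tested.

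Among the remaining proteases, Lgmn, on the myeloid-enriched side in the broader grouping above, encodes legumain, an asparaginyl endopeptidase that processes cathepsins. Lgmn stood at 68.0, 78.8 and 84.2 TPM in WT and 128, 134 and 143 TPM in S156A (log2 difference 0.81, SE 0.11, limma adjusted p = 0.0624). Cathepsin L, a strong endopeptidase encoded by Ctsl, stood at 78.6, 69.7 and 89.3 TPM in WT and 125, 122 and 132 TPM in S156A (log2 difference 0.67, SE 0.12). For both, the highest WT library was far below the lowest S156A library. Ctsa encodes cathepsin A, a serine carboxypeptidase that also protects beta-galactosidase and neuraminidase. Its values were 47.1, 42.7 and 60.1 TPM in WT and 81.4, 70.8 and 73.8 TPM in S156A (log2 difference 0.59, SE 0.15). Ctsf, a papain-like cathepsin, differed least among the proteases, at 56.6, 45.2 and 55.1 TPM in WT and 64.0, 66.3 and 65.5 TPM in S156A (log2 difference 0.32, SE 0.12). The 3 S156A values of Ctsf were nearly equal and lay above the WT range.

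Ctsk, the collagen-degrading cathepsin of osteoclasts and some fibroblasts, did not follow genotype. It stood at 2.65, 17.7 and 76.4 TPM in WT and 121, 12.4 and 14.9 TPM in S156A, so its high libraries were the muscle-rich ones. Acp5, an acid phosphatase used as an osteoclast marker, stood at 0.12, 3.90 and 38.5 TPM in WT and 69.2, 1.62 and 4.40 TPM in S156A. Col1a1, the main collagen gene of bone and connective tissue, stood at 53.0, 216 and 934 TPM in WT and 1318, 140.4 and 148 TPM in S156A. The summed level of 6 osteoclast markers ran from 19.9 to 83.7 TPM in WT and from 28.04 to 134 TPM in S156A, with Ocstamp at 0 in 3 libraries and Dcstamp at 0 in 2. The 4 tested markers were split, with log2 differences of 0.73 for Acp5, 0.82 for Mmp9, -0.22 for Oscar and -1.25 for Calcr. Calcr, the calcitonin receptor gene, did not follow Ctsk, at 7.98, 5.38 and 5.01 TPM in WT and 1.64, 2.27 and 1.953 TPM in S156A (SE 0.25, limma adjusted p = 0.11). Acp5 and Calcr were named after their values were seen. The part of these cells in the Ctsk values was not tested. The log2 difference of Ctsk was 0.77 (SE 1.22, limma adjusted p = 0.82) and turned to -0.36 without WT replicate 1 and -0.25 without S156A replicate 1. Ctsk and Ctss are neighbours on chromosome 3, 17423 bases apart, and only Ctss separated the genotypes.

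**Figure D2:**
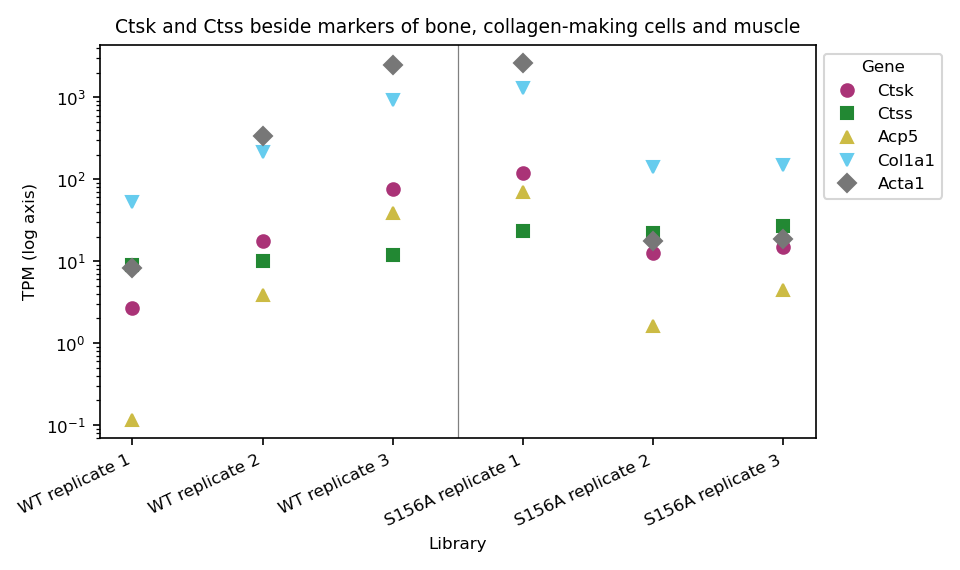
Levels in TPM on a log axis of Ctsk and its neighbour Ctss in the 6 libraries, beside Acp5, Col1a1 and Acta1, markers of osteoclasts, collagen-making cells and skeletal muscle. Ctsk is highest in WT replicate 3 and S156A replicate 1, at 76.4 and 121 TPM, where the other 3 markers are also highest, whereas all S156A values of Ctss lie above its WT values.

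Of the 9 glycosidases, 3 were at an unadjusted p under 0.05, all higher in S156A, and 0 were called. Hexa, the alpha subunit of beta-hexosaminidase that breaks down ganglioside GM2, stood at 43.7, 48.8 and 51.4 TPM in WT and 82.4, 76.9 and 78.7 TPM in S156A (log2 difference 0.72, SE 0.11, limma adjusted p = 0.0658). Gusb, beta-glucuronidase, stood at 22.2, 23.9 and 23.8 TPM in WT and 38.8, 38.2 and 33.1 TPM in S156A (log2 difference 0.63, SE 0.12). Man2b1, an alpha-mannosidase, stood at 16.4, 18.2 and 20.6 TPM in WT and 30.4, 24.6 and 22.3 TPM in S156A (log2 difference 0.46, SE 0.16). The groups did not overlap for any of these 3 genes, and for Hexa and Gusb the gap exceeded the spread within either group. Galc, the galactosylceramidase needed for myelin lipid turnover, was at 17.8 ± 0.75 TPM in WT and 23.7 ± 4.64 in S156A (SD, n = 3 each, log2 difference 0.38, SE 0.17). Gla (0.31), Naglu (0.26), Glb1 (0.05) and Neu1 (0.03) had smaller log2 differences, and Gaa, the glycogen-degrading alpha-glucosidase, had -0.14, at 102 ± 5.39 TPM in WT and 92.8 ± 3.91 in S156A. Glb1 overlaps Tmppe on the same strand, so its value is less certain.

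The sulfatases and lipid hydrolases stood closest to their WT levels, with a summed level of 165 ± 7.49 TPM in WT and 174 ± 8.13 in S156A (SD, n = 3 each). Arsb, a sulfatase of glycosaminoglycans, was the 1 gene of the 6 at an unadjusted p under 0.05, at 17.98, 23.4 and 22.4 TPM in WT and 28.8, 30.2 and 25.7 TPM in S156A (log2 difference 0.40, SE 0.15). Its S156A values all lay above its WT values. Lipa, the acid lipase that frees cholesterol from its esters, had a log2 difference of 0.30 (SE 0.23) and Asah1, acid ceramidase, 0.18 (SE 0.12). Sgsh, a heparan sulfatase, was low at 4.15 ± 1.07 TPM in WT and 4.58 ± 0.30 in S156A. Smpd1, acid sphingomyelinase, and Arsa, the sulfatase of myelin sulfatide, had negative log2 differences of -0.10 (SE 0.09) and -0.17 (SE 0.16). Gaa and Sgsh lie 57970 bases apart on chromosome 11, and neither was at an unadjusted p under 0.05, although Gaa came under it with trimmed-mean scaling (log2 difference -0.24).

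Among the activators and transfer proteins, Grn, the gene of progranulin, stood at 42.8, 61.4 and 75.7 TPM in WT and 117, 105 and 109 TPM in S156A (log2 difference 0.90, SE 0.20, limma adjusted p = 0.14). Npc2, which hands cholesterol to NPC1 inside the lysosome, stood at 55.9, 52.7 and 66.1 TPM in WT and 85.9, 69.7 and 72.5 TPM in S156A (log2 difference 0.38, SE 0.13). Both genes were without overlap between the groups, with WT replicate 3 the nearest WT library. Psap, the precursor of the saposins that present sphingolipids to hydrolases, was among the most abundant of the 38 genes. It stood at 312, 319 and 336 TPM in WT and 369.9, 369 and 346 TPM in S156A (log2 difference 0.17, SE 0.10). Its share of the summed TPM of the 38 genes was 14.5% ± 0.90 in WT and 11.6% ± 0.93 in S156A (SD, n = 3 each), whereas that of Ctsd rose. The share of Psap fell because its TPM rose less than the sum, with ratios of means of 1.12 and 1.40. Gm2a, the GM2 activator that works with Hexa, was at 22.5 ± 1.40 TPM in WT and 24.5 ± 1.02 in S156A (log2 difference 0.12, SE 0.12).

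Among the 7 membrane genes, Cd68, Lamp2 and Lamp1 were at an unadjusted p under 0.05. Lamp2, a membrane glycoprotein needed for autophagosome fusion and chaperone-mediated autophagy, stood at 44.8, 39.5 and 60.0 TPM in WT and 70.0, 69.3 and 74.2 TPM in S156A (log2 difference 0.58, SE 0.16). Lamp1, the most abundant membrane glycoprotein gene of the list, stood at 229.9, 236 and 235 TPM in WT and 273, 277 and 295 TPM in S156A (log2 difference 0.27, SE 0.09). Its WT values lay within 10 TPM of each other, so a small difference separated the groups. Mcoln1, the calcium channel TRPML1, stood at 45.7, 79.2 and 41.6 TPM in WT and 82.6, 51.7 and 72.0 TPM in S156A, with overlapping groups (log2 difference 0.34, SE 0.27). Cd63, a tetraspanin of late endosomes, stood at 94.0, 115 and 206 TPM in WT and 113, 119 and 204 TPM in S156A, and its log2 difference turned from 0.10 to -0.13 without WT replicate 1 and -0.17 without S156A replicate 3. Npc1, the cholesterol exporter, had a log2 difference of 0.17 (SE 0.13) and Scarb2, the receptor that carries glucocerebrosidase, 0.03 (SE 0.14).

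Of the transcription factor genes, neither Tfeb nor Tfe3 separated the genotypes. Tfeb stood at 0.16, 4.27 and 9.28 TPM in WT and 11.5, 5.07 and 5.49 TPM in S156A, and its log2 difference was 0.99 (SE 0.76, limma adjusted p = 0.60). This difference was 0.10 without WT replicate 1, the library with almost no Tfeb, and 1.68 without WT replicate 3. Tfe3 stood at 25.2, 24.4 and 22.3 TPM in WT and 27.8, 21.8 and 25.7 TPM in S156A (log2 difference 0.06, SE 0.14, limma adjusted p = 0.89). The related genes Mitf and Tfec were under the filter and not tested, at 0.37 to 0.54 and 0 to 0.19 TPM in WT and 0.78 to 0.99 and 0.29 to 0.88 TPM in S156A. In Mitf and Tfec every S156A value lay above every WT value, at these low levels. TFEB and TFE3 are controlled mainly by phosphorylation and by entry into the nucleus, which transcript levels do not measure.

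**Figure D3:**
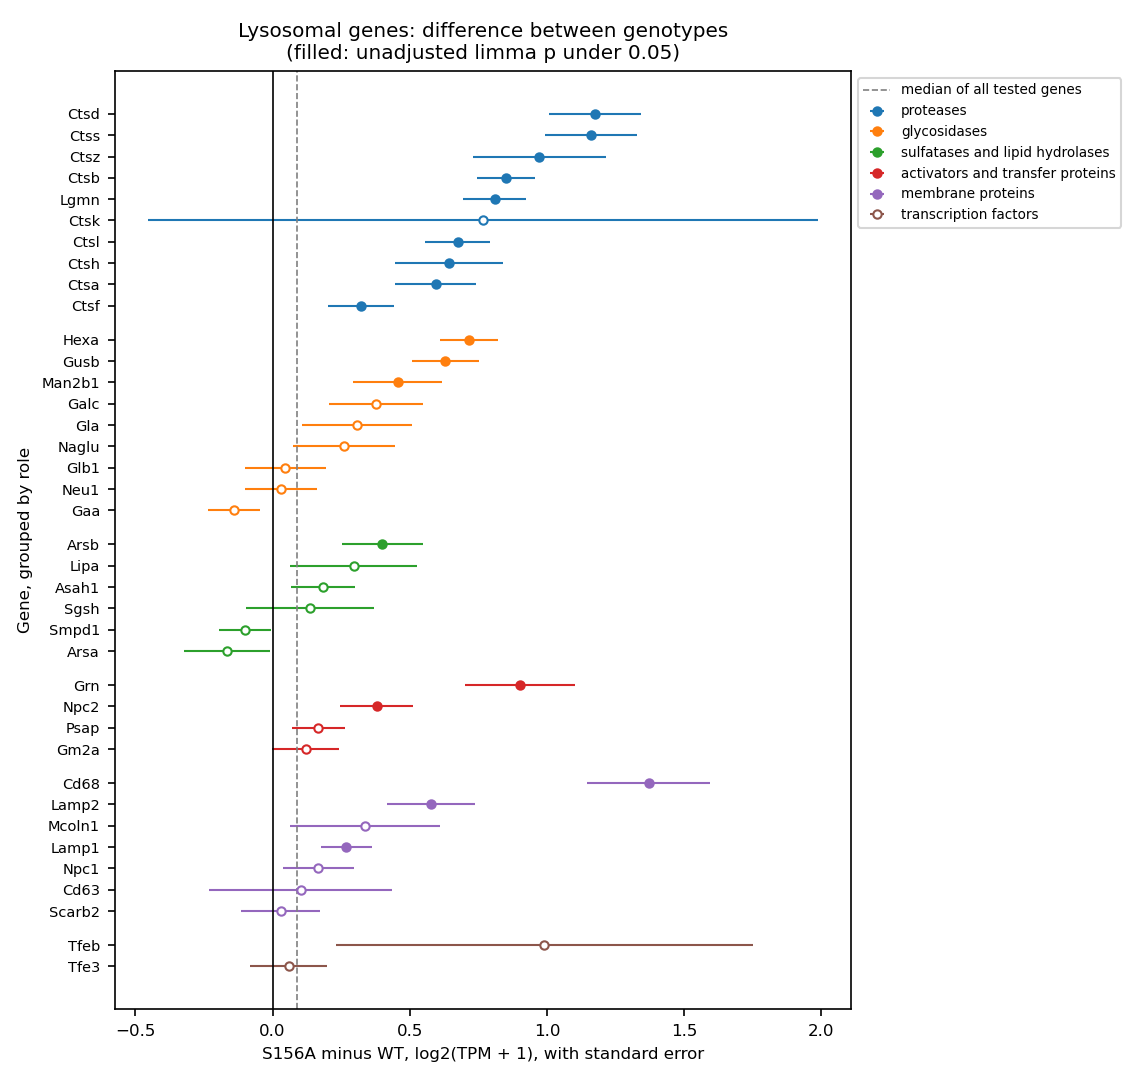
Log2 differences (S156A minus WT, on log2(TPM + 1), horizontal axis) with standard errors for the 38 genes grouped by role, filled where the unadjusted limma p is under 0.05. The 18 filled genes are all to the right of 0, and the dashed line marks the median of all tested genes, 0.09.

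Promoter sequences from RefSeq (GRCm38.p6, 250 bases before to 50 after the start) were searched for TCACGTGA, the core shared by the elements that TFEB and TFE3 bind, and for CACGTG, the E-box inside it. Both motifs read the same on both strands, and each TCACGTGA also counts as a CACGTG. Of the 38 genes 34 had a promoter in the table. TCACGTGA was found for 4 of the 34, Ctsa, Ctsd, Gla and Mcoln1, or 11.8% of them, against 1.12% of 27025 genes. CACGTG was found for 13 of the 34 (38.2%), against 8.09% of genes. The median log2 difference was 0.47 for the 4 genes with TCACGTGA and 0.35 for the 30 without it, and 0.31 for the 13 genes with CACGTG and 0.40 for the 21 without it. Differences of genes with and without the motifs covered overlapping ranges, and Ctss, Cd68, Ctsz, Grn and Hexa, all at an unadjusted p under 0.05, had neither motif in the window. A match of letters describes the sequence and shows no binding.

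The 250 bases before the start are shown for 4 genes with the motifs and, for comparison, for 2 myeloid-enriched genes without them. They are written 5′ to 3′ in the direction of the gene, with TCACGTGA or CACGTG in capitals. Ctsd (chr7:142387828-142388077, minus strand) has TCACGTGA 99 bases before the start and had a log2 difference of 1.17. Ctsa (chr2:164833523-164833772, plus strand, 1 of 2 promoters listed) has it 13 bases before the start and again just past the start, with a difference of 0.59. Mcoln1 (chr8:3500269-3500518, plus strand) has it 46 bases before the start, with a difference of 0.34. Lamp1 (chr8:13158911-13159160, plus strand) has 4 E-boxes and a difference of 0.27. Ctss (chr3:95526536-95526785, plus strand) and Cd68 (chr11:69666171-69666420, minus strand) have none and had differences of 1.16 and 1.37.
Ctsd: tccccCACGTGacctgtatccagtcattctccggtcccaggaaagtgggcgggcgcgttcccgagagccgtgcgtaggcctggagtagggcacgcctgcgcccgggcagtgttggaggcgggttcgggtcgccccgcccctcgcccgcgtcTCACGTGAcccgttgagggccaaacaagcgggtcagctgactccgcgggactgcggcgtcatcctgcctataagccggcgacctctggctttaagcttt
Ctsa: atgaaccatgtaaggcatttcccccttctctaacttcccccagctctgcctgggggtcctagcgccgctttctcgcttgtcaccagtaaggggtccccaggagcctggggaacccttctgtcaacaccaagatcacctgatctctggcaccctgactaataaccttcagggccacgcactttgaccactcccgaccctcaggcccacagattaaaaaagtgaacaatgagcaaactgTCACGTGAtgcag
Mcoln1: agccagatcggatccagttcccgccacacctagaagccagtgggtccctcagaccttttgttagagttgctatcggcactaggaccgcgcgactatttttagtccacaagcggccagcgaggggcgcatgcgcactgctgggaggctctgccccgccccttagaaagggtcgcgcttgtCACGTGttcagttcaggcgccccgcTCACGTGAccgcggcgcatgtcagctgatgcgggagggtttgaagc
Lamp1: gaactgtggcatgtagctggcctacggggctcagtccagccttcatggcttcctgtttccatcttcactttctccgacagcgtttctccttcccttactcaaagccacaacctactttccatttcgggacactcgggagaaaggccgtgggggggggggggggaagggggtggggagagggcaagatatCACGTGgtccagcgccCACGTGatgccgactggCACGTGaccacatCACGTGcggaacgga
Ctss: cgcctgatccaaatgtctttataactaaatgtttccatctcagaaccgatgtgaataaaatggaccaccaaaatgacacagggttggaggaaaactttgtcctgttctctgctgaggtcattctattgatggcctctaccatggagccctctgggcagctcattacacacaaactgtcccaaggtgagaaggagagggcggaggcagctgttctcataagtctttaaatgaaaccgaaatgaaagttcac
Cd68: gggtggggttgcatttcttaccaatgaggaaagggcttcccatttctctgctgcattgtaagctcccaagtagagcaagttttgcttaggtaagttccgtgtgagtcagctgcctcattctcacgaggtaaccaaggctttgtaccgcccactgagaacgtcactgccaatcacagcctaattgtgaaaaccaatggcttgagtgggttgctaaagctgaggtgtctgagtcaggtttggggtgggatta

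Further lysosomal genes were described by lists set out with the design. Of 21 other hydrolase genes 20 had positive log2 differences (median 0.32), and 7 were higher and 1 lower at an unadjusted p under 0.05. Ctsc, the dipeptidyl peptidase that activates granule proteases, had a log2 difference of 0.65 (SE 0.20). Ids, iduronate sulfatase, named after its value was seen, was the lower gene, at 142 ± 19.3 TPM in WT and 108 ± 20.1 in S156A.

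Most genes of the proton pump had log2 differences opposite in sign to most hydrolases. Their summed level overlapped between the genotypes, at 3301, 3124 and 2696 TPM in WT and 2390, 2620 and 2803 TPM in S156A. Of 16 genes of the V-ATPase, which acidifies lysosomes and also synaptic vesicles, 12 had negative log2 differences (median -0.18), 0 were called, and 4 were lower and 0 higher at an unadjusted p under 0.05. Atp6v1g2, a subunit mainly of neurons, was at 104 ± 21.0 TPM in WT and 58.1 ± 5.94 in S156A (log2 difference -0.81, SE 0.17, limma adjusted p = 0.12). Atp6v0a1 had a log2 difference of -0.48 (SE 0.14) and Atp6v0c, the proton-carrying ring subunit, -0.40 (SE 0.14). The summed level of the 6 neuronal markers was 4049 ± 665 TPM in WT and 3090 ± 571 in S156A (SD, n = 3 each), with 4 of the 6 lower at an unadjusted p under 0.05. Its part in the V-ATPase values was not tested. The V-ATPase median stayed negative under every alternative, between -0.27 and -0.10, with 2 to 8 genes lower at an unadjusted p under 0.05, and 1 gene was called with library weights.

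Other lysosomal lists stood closer to the median of all tested genes. Of 17 other membrane genes 11 were positive (median 0.25), 4 higher and 1 lower at an unadjusted p under 0.05, led by Laptm4a (0.48), the cystine exporter gene Ctns (0.44) and Cd164 (0.56). This median was 0.05 without both muscle-rich libraries and 0.06 to 0.35 with 1 library left out. Of 9 sorting genes 7 were positive (median 0.13), and M6pr, the cation-dependent mannose 6-phosphate receptor, was at 35.7 ± 5.91 TPM in WT and 50.3 ± 2.92 in S156A (log2 difference 0.49, SE 0.14). Nagpa, which uncovers the mannose 6-phosphate tag, had a log2 difference of 0.53 and Gnptab, which adds it, -0.24. Of 14 tested genes that control TFEB and mTORC1 on the lysosome 8 were positive (median 0.10), led by Fnip1 (0.38), Rraga (-0.28) and Lamtor2 (0.24). The 9 autophagy genes had a median of 0.03, led by Gabarap (0.33), Map1lc3a (-0.24) and Atg9a (-0.29), and this median turned to -0.06 under trimmed-mean scaling, -0.02 under quantile normalization, -0.0049 without WT replicate 3 and -0.0010 without S156A replicate 2. None of the genes in these 4 lists, membrane, sorting, control and autophagy, was called by limma.

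**Figure D4:**
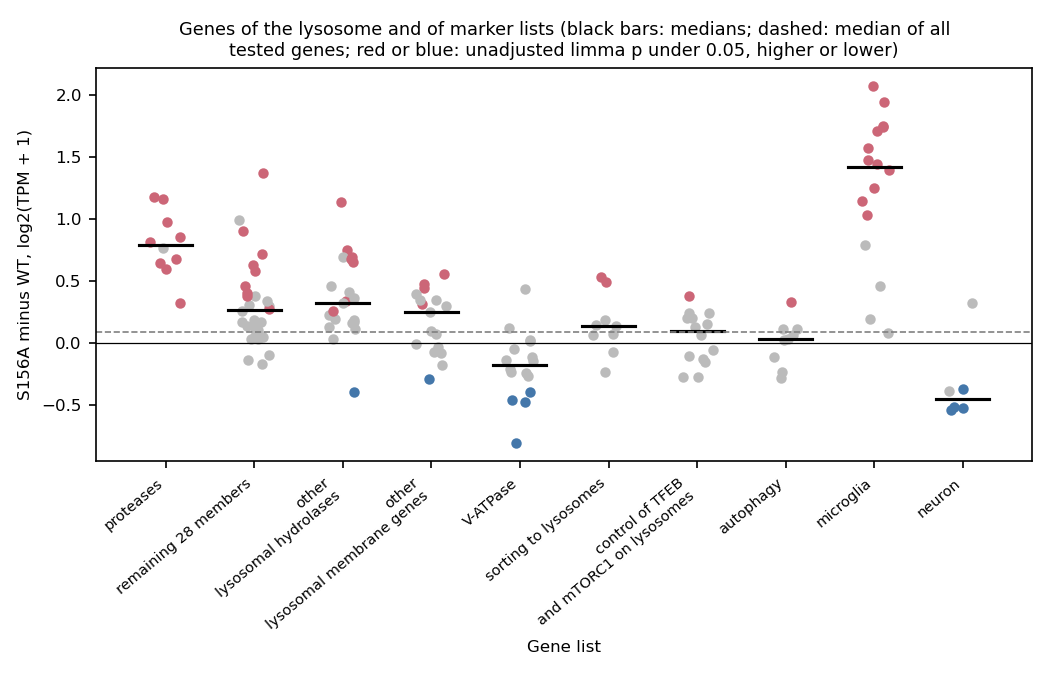
Log2 differences (S156A minus WT, on log2(TPM + 1), vertical axis) of the tested genes of 10 lists, with medians as black bars and genes at an unadjusted limma p under 0.05 in red (higher) or blue (lower). Proteases and microglial markers sit highest, with medians of 0.79 and 1.42, and the medians of V-ATPase genes and neuronal markers lie below 0, at -0.18 and -0.45.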

How the data were processed

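The deposited tables are StringTie gene abundance files, 1 per library, with TPM signal, FPKM and coverage per base, per the file headers. Reads were trimmed with Trim Galore 0.6.6 and handled with StringTie 2.1.5 and HISAT2 2.2.1, per the submitters' processing notes, which list the human build hg38 although the rows are mouse genes. Strand handling and annotation release were not given in the sources used here. Of 52083 genes matched by identifier 4.15% lay within 1000 bases of their GRCm38 start, with 0 of the 38 genes among them, so coordinates of genes are printed as in the files, with GRCm39 inferred. Annotated rows were used and rows sharing an identifier summed. The deposited TPM signal of the annotated rows summed to 93.1% to 95.8% of a full TPM total. The assembled rows, 26631 to 28575 per library, summed to a further 100.0% in every library and were left out. The deposited TPM of both kinds of rows was thus not scaled to a single total. The commonest coverage to FPKM ratio, shared by 12.0% to 12.9% of rows above 10 FPKM, gave an estimate of depth, so no counting intervals are given.

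Genes averaging at least 1 TPM were tested on log2(TPM + 1), which understates changes of low genes, with limma 3.58.1 in R 4.3.3 (eBayes with trend, two-sided, no covariate, Benjamini-Hochberg over 18893 genes). Libraries of 1 genotype were taken as replicates. The exact permutation test compared TPM of 3 against 3 libraries, two-sided, with a smallest p of 0.1. On simulated data for S156A against WT with 18893 genes, limma called 1 of 50 genes at a simulated log2 fold of 0.5, 13 of 50 at 1, 41 of 50 at 2 and 44 of 50 at 3. Simulated noise was drawn independently for each gene and library. It lacked deviations shared between libraries, such as those of the muscle-rich ones, so the rates may not hold for the real data. The planned comparison of cathepsin protein sequences was not run. The 38 genes and all lists were chosen with earlier results of these data known. Every gene of the 38 was described. Values in each library were given for called genes, those at an unadjusted p under 0.05, the myeloid-enriched genes, Tfeb, Tfe3, Mcoln1 and the 4 highest in mean TPM, and for Ctsk and Cd63, chosen after their values were seen. Up to 3 genes of smallest p were named per other list. Results of some genes under this rule are left out here. Alternatives were FPKM, other pseudocounts (0.1 and 5), a stricter filter (5 TPM) or none, other scalings, other moderation, library weights, a replicate block, a Y-linked covariate and libraries left out.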

Additional observations from a re-analysis of the deposited data

How the results depend on the processing

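Trimmed-mean scaling moved the median of all genes from 0.09 to 0.0014, a shift under 0.1. The median log2 difference of the 38 genes stayed within 1 SD between libraries of its value of 0.36 under all 20 alternatives (0.26 to 0.42), as did the gap between myeloid-enriched and other genes (0.64 to 0.92) and, within 1.5 times, the count at an unadjusted p under 0.05 (14 to 19). Of the 18 genes in that count 13 stayed under 0.05 in every alternative, and Man2b1, Arsb, Npc2, Ctsf and Lamp1 did not. Under a trimmed mean of M values 13 were higher and 1, Gaa, lower. Groups did not overlap for 22 genes with FPKM and 20 with the trimmed mean, in place of 23. The number of the 38 called was 0 with FPKM, no filter, the trimmed mean, eBayes without trend, the Y-linked covariate and without both muscle-rich libraries, 2 with quantile normalization and 8 with library weights, and 0 to 2 with 1 library left out. Over all genes the count of 30 (16 higher, 14 lower) became 0 with no filter (2001 higher and 1363 lower at an unadjusted p under 0.05 by limma) and without both muscle-rich libraries (1987 and 1154), 75 (17 and 58) with the trimmed mean, 52 (16 and 36) with quantile normalization, 16 with eBayes without trend, 309 with library weights, 1 with the Y-linked covariate, and 0 to 70 with 1 library left out. The causes were not tested.

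With the replicate number as a block, 0 of the 38 and 0 of all genes were called, and 14 of the 38 were at an unadjusted p under 0.05. Deviations of same-numbered libraries from their group means had correlations of -0.55, 0.19 and -0.41. The largest correlation, 0.65, was between WT replicate 3 and S156A replicate 1, the muscle-rich libraries. Deviations from a mean of 3 libraries are tied to each other, so these values cannot show whether same-numbered libraries shared a preparation.

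The 6 genes whose log2 difference turned in sign all had standard errors larger than the difference. Trimmed-mean scaling gave -0.047 for Glb1, -0.064 for Neu1, -0.067 for Scarb2 and -0.034 for Tfe3. Quantile normalization gave -0.033 for Glb1, -0.040 for Neu1 and -0.017 for Tfe3. Library weights gave -0.0055 for Glb1, -0.021 for Neu1 and -0.00093 for Scarb2. Without both muscle-rich libraries Neu1 had -0.011 and Tfe3 -0.067, and with the Y-linked covariate Tfe3 had -0.018. With 1 library left out the values ran from -0.36 to 1.84 for Ctsk, -0.067 to 0.12 for Glb1, -0.046 to 0.12 for Neu1, -0.17 to 0.43 for Cd63, -0.090 to 0.15 for Scarb2 and -0.017 to 0.15 for Tfe3. With CACGTG in place of TCACGTGA, 13 promoters in place of 4 matched, since the shorter motif is part of the longer.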
